A study of Caenorhabditis elegans with 4 samples.

Results

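The broad regions bound by DVE-1 were 366 of the 3702 binding sites in the combined peak list of the study (9.89%). They were chosen by their width, 1500 bp or more from the first to the last base of the peak, so that width, and the peak strength that goes with it, are descriptions here and not findings. The other 3336 peaks, all under 1500 bp, are called the narrower peaks and are given for comparison.

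DVE-1 is a homeodomain protein of Caenorhabditis elegans, known for its part in the transcriptional response to misfolded proteins in mitochondria, where it builds up in the nucleus together with the cofactor UBL-5. Chromatin immunoprecipitation with sequencing (ChIP-seq) marks the DNA that a protein is crosslinked to, and a peak is a stretch in which reads of the precipitated DNA exceed those of a control. A factor held at a single short motif usually gives a peak about as wide as the sheared DNA fragments. Several sites within a few fragment lengths can be joined into a single interval by the peak caller.

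The samples were hermaphrodites at the L4 larval stage of strain OP398, grown at 20 °C, with 2 ChIP libraries and 2 libraries of input DNA. The strain carries unc-119(ed3) III and the transgene wgIs398, which holds dve-1 tagged with TY1EGFPFLAG and the rescue gene unc-119(+); the ChIP and input libraries share this genotype. The tagged protein was precipitated with antibodies against GFP from whole worms, so the tissue a region was bound in is not resolved, and the tag sits on a transgene copy made by bombardment. Peak lists of ChIP replicate 1 (1550 peaks), ChIP replicate 2 (2142 peaks) and the combined data were used. The input libraries and any strain without the tag were not analysed here, no read count is given, and the depth of each library is unknown. The labels do not state whether separate cultures gave the 2 replicates, and differences between them may be technical. Coordinates are in WormBase WS180, and no gene is given for a region, since no annotation of that build was used here.

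Broad regions made up 9.89% of the combined peaks and 33.6% of the length those peaks covered, 0.994 of 2.96 Mb. Their median width was 2222 bp (quartiles 1841 and 3155 bp), against 499 bp (374 and 732 bp) for the narrower peaks. Most were only moderately wide: 138 lay between 1500 and 2000 bp and 129 between 2000 and 3000 bp. The 24 regions of 5000 bp or more held 16.1% of the broad length. There was no gap in the widths at the limit, with 47 peaks from 1400 to 1499 bp, 23 from 1500 to 1599 bp and 31 from 1600 to 1699 bp. The region just inside it lay on chromosome IV from 11821397 to 11822896 (1500 bp), and the 2 peaks just outside it, both 1497 bp wide, began at 9328662 and 9491376 on chromosome V.

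The replicate lists had broad peaks in like proportion. Replicate 1 had 155 peaks of 1500 bp or more, which were 10.0% of its peaks and 30.5% of its covered length. Replicate 2 had 182, or 8.50% of its peaks and 30.7% of its length. Of these, 149 in replicate 1 (96.1%) and 177 in replicate 2 (97.3%) lay on a broad region of the combined list. Between the replicates the match was looser, since 120 of the 155 broad peaks of replicate 1 (77.4%) met a broad peak of replicate 2, and 115 of the 182 in the other direction (63.2%).

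Width went with strength. The q-value of a peak, the false discovery rate given by the authors' caller, had a median of 6.65e-25 in the broad regions and 2.58e-07 in the narrower peaks. When the combined list was ordered by q-value and divided into 10 groups, the strongest group held 198 broad regions (53.5% of its peaks), the next 64 (17.3%) and the weakest 2 (0.539%). Of the 100 strongest peaks 79 were broad. A q-value grows more extreme with the number of reads in an interval, so width and q-value are not separate measures. For this reason several comparisons below are also given within the strongest 926 peaks of the list, of which 280 were broad.

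The widest region of all, on chromosome II from 10541811 to 10557672, spanned 15862 bp. Replicate 1 called 4 peaks in it, of 5516, 2067, 2811 and 2765 bp, and replicate 2 called 2, of 5452 and 9893 bp. The first peak of both lists ended at almost the same base, 10547326 in replicate 1 and 10547268 in replicate 2. The stretch from 10547613 to 10557505 was a single peak in replicate 2 and 3 peaks in replicate 1. The outer edges of the region differed by only 6 bp at the start and 59 bp at the end between the replicates. The extent of the region was alike in the 2 lists while its inner division was not.

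The same picture held for several of the other wide regions. On chromosome V the region from 6220672 to 6230061 (9390 bp) was a peak of 9450 bp in replicate 2, and peaks of 1295 and 7791 bp in replicate 1. The region from 723751 to 732021, 8271 bp wide and the strongest peak of the list, was a single peak of 8207 bp in replicate 2 and peaks of 4632 and 3208 bp in replicate 1. On X the widest region lay from 4142072 to 4148894 (6823 bp), with 1 peak of 6729 bp in replicate 2 and 2 peaks, of 4522 and 1719 bp, in replicate 1. Of the 10 widest regions, 9 were split in replicate 1 and 3 in replicate 2. The exception was on chromosome I from 7078928 to 7084981 (6054 bp), which was a single peak of 4292 bp in replicate 1 and of 4709 bp in replicate 2.

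Another region among the 10 widest differed more in cover between the lists. The region on chromosome V from 5838452 to 5846283 (7832 bp) was covered to 89.6% by 2 peaks of replicate 2, but only to 43.8% by 3 peaks of replicate 1. In the region from 13652100 to 13659572 on the same chromosome (7473 bp), 3 peaks of replicate 1 covered 69.9% and 2 peaks of replicate 2 covered 79.1%. The remaining members of this group were 2 regions on chromosome II, from 14597708 to 14606525 (8818 bp) and from 8741252 to 8748184 (6933 bp), and another on chromosome V from 14362579 to 14369121 (6543 bp). Each of these was a single peak in replicate 2, and replicate 1 divided them into 2, 2 and 3 peaks.

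Most broad regions were found in the lists of both replicates. An overlap of at least 1 bp was counted. Replicate 1 held 291 of the 366 regions (79.5%), against 39.5% of all combined peaks, and replicate 2 held 322 (88.0%), against 55.4% of all. Both lists held 289 broad regions (79.0%, exact 95% interval 74.4 to 83.0) and 1005 narrower peaks (30.1%, interval 28.6 to 31.7), with 35.0% over all combined peaks. Within the strongest 926 peaks the shares were close, 96.1% for the broad regions (interval 93.1 to 98.0) and 94.4% for the narrower peaks (interval 92.4 to 96.1). Intervals here and below cover counting error only, and no test was made, because peaks of a list are not independent and the replicate reads may also have made the combined list.

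Neither replicate held 42 of the broad regions (11.5%) and 1441 of the narrower peaks (43.2%). These 42 regions were narrower and weaker than the broad regions held by both. Their median width was 1828.5 bp and their median q-value 1.03e-06, against 2413 bp and 7.44e-30 for regions held by both. All 42 were under 3000 bp. The strongest lay on chromosome IV from 13250196 to 13252821 (2626 bp, q = 4.21e-19), ranked 470 in the combined list, and was the only such region in the strongest 926 peaks. It was followed by a region on X from 3968456 to 3970571 (2116 bp, q = 2.43e-12) and another on chromosome IV from 8525430 to 8526968 (1539 bp, q = 1.22e-11). A further 33 broad regions (9.02%) were held by replicate 2 alone and 2 (0.546%) by replicate 1 alone. Among narrower peaks these shares were 21.7% and 4.98%.

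Being held by a replicate did not mean being called broad in it. A peak of 1500 bp or more was present in both lists at 111 of the broad regions (30.3%), in replicate 2 alone at 60 and in replicate 1 alone at 25. At the other 170 regions (46.4%) neither list had a peak that wide. Where a replicate held a region, its peaks covered a median of 65.5% of it in replicate 1 (quartiles 44.5 and 83.9%) and 78.5% in replicate 2 (52.8 and 93.2%). The narrower peaks, where held, were covered more fully, to a median of 85.0% in replicate 1 and 88.8% in replicate 2. Part of this contrast is given by the rule, since cover is divided by the width that chose the regions. Choosing by the combined width also favours regions whose replicate peaks are narrower than the combined peak. Summed over all broad regions, held or not, 50.1% of the bases lay in peaks of both replicates and 26.3% in peaks of neither. For all narrower peaks these shares were 25.3% and 46.8%, so on this measure the order of the classes was reversed.

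Some regions were almost whole in both lists and others held only a short core. Both replicates covered at least 80% of the region at 73 broad regions (19.9%), with a median width of 2887 bp. Both covered less than 50% at 35 (9.56%), with a median width of 2374 bp. In 31 of these 35, each list had a single peak, in the median 676 bp wide for replicate 1 and 781 bp wide for replicate 2. These short peaks mostly lay at the same place. The bases shared by both were a median of 73.0% of those covered by either (quartiles 52.2 and 78.3%), and in 1 of the 31 regions none was shared. An edge of the peaks lay within 100 bp of the matching edge of the region in 18 of the 31 in replicate 1 and 17 in replicate 2.

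The clearest cases had a short peak at an edge of the region. On X the region from 8932292 to 8935560 (3269 bp) was covered by peaks of 444 bp in replicate 1 and 452 bp in replicate 2, both at its left edge, which made up 13.2 and 13.8% of it. On chromosome IV the region from 5658912 to 5663842 (4931 bp) had peaks of 897 and 893 bp, again at its left edge, with 18.2 and 18.1% covered. Another on chromosome IV, from 10508975 to 10512012 (3038 bp), had peaks of 707 and 766 bp near its right edge. These 3 were singled out after their values were seen. Among regions with exactly 1 peak in each list, they were lowest by the larger of the 2 covers. In 2 regions held by both, the replicate peaks shared no base at all. On X from 15273620 to 15277374 (3755 bp), replicate 1 called the right part, 1120 bp from 15276225, and replicate 2 the left part, 1964 bp from 15273644. On chromosome III from 1219856 to 1221624 (1769 bp), the peak of replicate 2 entered the region only at its last bases.

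Splitting was common in broad regions. At least 1 replicate list divided 106 of the 366 regions into 2 or more peaks (29.0%, exact interval 24.4 to 33.9), against 13 of the 3336 narrower peaks (0.390%, interval 0.208 to 0.665) and 3.21% of all combined peaks. Much of this contrast is given by the rule, since a narrow interval has little room for 2 peaks. Replicate 1 split 75 regions (20.5%) and replicate 2 split 74 (20.2%). Both lists split the same region in 43 cases. In 32 cases replicate 1 split what replicate 2 called as a single peak, and in 27 cases it was the reverse. Another 4 were split in replicate 2 and not called in replicate 1. Replicate 1 found 2 peaks in 62 regions, 3 in 12 and 4 in 1, and replicate 2 found 2 in 69 and 3 in 5.

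**Figure D1:**
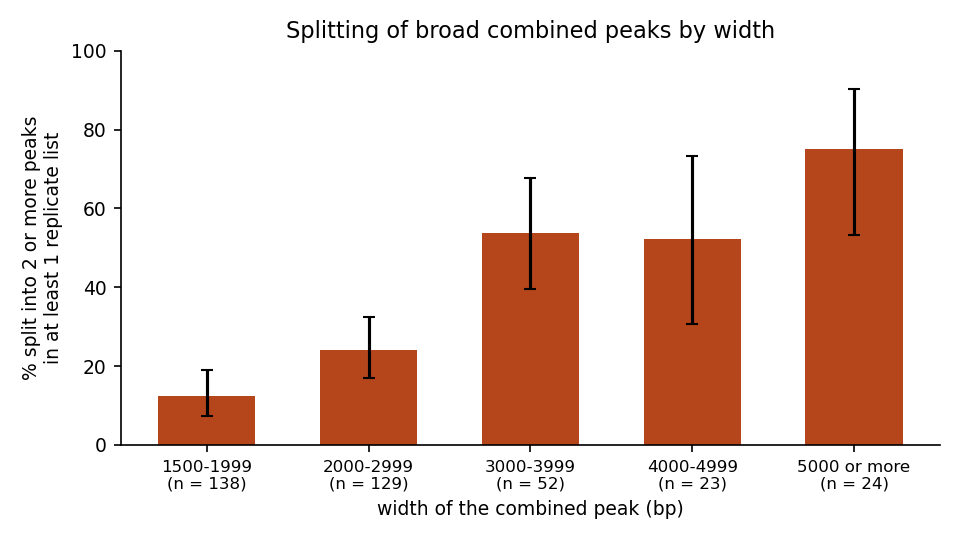
Share of the 366 broad combined peaks that at least 1 replicate list split into 2 or more peaks, by width of the combined peak in bp. Bars are percentages and lines are exact 95% intervals, which cover counting error only; the share was 12.3% from 1500 to 1999 bp and 75% at 5000 bp or more.

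The share split was higher in wider regions. It was 12.3% from 1500 to 1999 bp (17 of 138), 24.0% from 2000 to 2999 bp (31 of 129) and 53.8% from 3000 to 3999 bp (28 of 52). From 4000 to 4999 bp it was 52.2% (12 of 23), and at 5000 bp or more it was 75% (18 of 24). After the widest region, the one with most peaks lay on chromosome V from 12300111 to 12304259 (4149 bp), with 3 peaks in each list. Its peaks were 492, 1879 and 1057 bp wide in replicate 1 and 1556, 1148 and 913 bp in replicate 2. The first breaks lay apart, at 12300609 to 12300817 in replicate 1 but at 12301605 to 12301823 in replicate 2, whereas the last breaks overlapped, from 12302697 to 12303164 and from 12302972 to 12303305. A region on chromosome I from 9378363 to 9384399 (6037 bp), split into 3 peaks in replicate 1 and 2 in replicate 2, had a break after 9382128 in replicate 1 that overlapped the break after 9382236 in replicate 2.

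The breaks inside split regions were short. Replicate 1 had 89 breaks with a median of 371 bp (quartiles 247 and 606 bp), and replicate 2 had 79 with a median of 306 bp (248.5 and 431 bp). No 2 neighbouring peaks of any list were closer than 200 bp, with smallest distances of 202 bp in the combined list, 200 bp in replicate 1 and 201 bp in replicate 2. Breaks under 500 bp were 61 of the 89 in replicate 1 and 65 of the 79 in replicate 2. Of the 89 breaks of replicate 1, replicate 2 had peaks across the whole break in 48, across part of it in 38 and across none of it in 3. Of the 79 breaks of replicate 2, replicate 1 had peaks across the whole break in 18, part of it in 31 and none of it in 30. The 30 include the breaks of the 4 split regions in which replicate 1 called no peak at all.

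The edges of broad regions agreed less well between the replicates than those of narrower peaks. Each list had exactly 1 peak at 187 broad regions and 993 narrower peaks. The starts differed by a median of 127 bp at the broad regions (exact interval of the median 94 to 200 bp) and 38 bp at the narrower peaks (35 to 41 bp). The ends differed by 124 bp (90 to 153 bp) and 39 bp (36 to 42 bp). Relative to the width of the combined peak, the median was 6.61% for the starts of broad regions and 6.01% for those of narrower peaks, and 5.18% and 6.19% for the ends. For whichever edge differed more it was 16.3% and 11.5%. In the strongest 926 peaks the starts differed by 121 bp at broad regions and 37 bp at narrower peaks, so the difference in bp was also present among strong peaks.

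**Figure D2:**
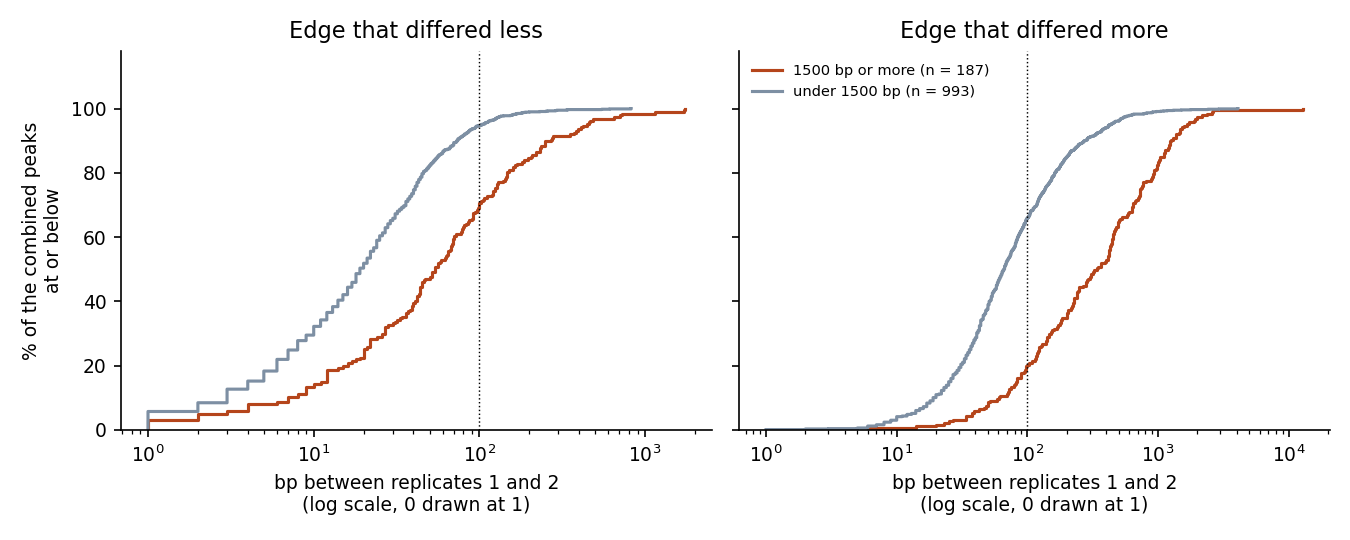
Cumulative share of combined peaks with exactly 1 peak in each replicate list, by the difference in bp between the replicates at the edge that differed less (left) and the edge that differed more (right), on log axes, for 187 broad and 993 narrower peaks. The dotted line marks 100 bp; the median difference at the edge that differed more was 342 bp for broad and 66 bp for narrower peaks.

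The edges of each region were also sorted by how much they differed, which by itself sets the one above the other. Among the 187 broad regions, the edge that differed less did so by a median of 54 bp, and the edge that differed more by 342 bp. Taken alone, 44.4% of the starts and 46.5% of the ends of broad regions lay within 100 bp, against 81.0% and 79.7% for narrower peaks. The same medians were 19 and 66 bp for narrower peaks. Both edges lay within 100 bp in 38 broad regions (20.3%, interval 14.8 to 26.8) and in 655 narrower peaks (66.0%, interval 62.9 to 68.9). Only 1 edge did so in 94 broad regions (50.3%) and 285 narrower peaks (28.7%). Neither edge did so in 55 (29.4%) and 53 (5.34%). The edge that differed more did so by over 500 bp in 66 broad regions (35.3%) and 38 narrower peaks (3.83%). These limits were fixed in bp and not scaled to width, so part of the contrast is given by the width rule. Classes next to the limit of 1500 bp differed less. The share over 500 bp was 12.3% in the 163 narrower peaks of 1000 bp or more. It was 28.2% in the 78 broad regions under 2000 bp. Both edges lay within 100 bp in 35.0% of the former and 19.2% of the latter.

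Widths followed the edges. The wider of the 2 replicate peaks was a median of 1.28 times as wide as the narrower at broad regions (interval 1.20 to 1.36) and 1.15 times at narrower peaks (1.14 to 1.16). Among the 39 of these regions that spanned 3000 bp or more it was also 1.15 (interval 1.06 to 1.56), and from 1500 to 1999 bp and from 2000 to 2999 bp it was 1.28 and 1.32. A ratio above 2 was found in 36 broad regions (19.3%) and 43 narrower peaks (4.33%). Among the 39 regions of 3000 bp or more it was found in 7 (17.9%), so only their median was near that of narrower peaks. Replicate 2 had the wider peak in 129 of the 187 broad regions (69.0%) and in 582 of the 993 narrower peaks (58.6%). At these broad regions the median width was 2131 bp in the combined list, 1377 bp in replicate 1 and 1598 bp in replicate 2. The combined peak was at least as wide as both replicate peaks in 161 of the 187 broad regions (86.1%), and in 729 of the narrower peaks (73.4%). Regions were chosen for a wide combined peak, so part of this contrast is given by the rule. Across the 187 regions the widths in the 2 replicate lists had a Spearman rho of 0.635, against 0.778 across the 993 narrower peaks. Both values describe peaks that are not independent within a list, and neither is a test.

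The largest ratio of widths was 5.45, on X from 438323 to 442543 (4221 bp in the combined list). Replicate 1 had a peak of 2997 bp there, and replicate 2 a peak of 16345 bp that began at 425489 and was the widest of that list. On chromosome III the region from 8652070 to 8654417 (2348 bp) had peaks of 478 bp in replicate 1 and 2430 bp in replicate 2, a ratio of 5.08. On chromosome I the region from 13367321 to 13370581 (3261 bp) had peaks of 792 bp in replicate 1 and 3308 bp in replicate 2, a ratio of 4.18. In all 3 the starts differed far more (12890, 1674 and 2378 bp) than the ends (458, 278 and 138 bp). The opposite extreme among the named regions was the last peak of chromosome I, from 15064007 to 15067643 (3637 bp), with widths of 3629 and 3634 bp and edges 6 and 1 bp apart.

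The outer edges of split regions were no farther apart in the median than those of unsplit regions. Taken from the first to the last base of all pieces, the 102 regions that were split in a list and held by both had starts 74 bp apart and ends 95.5 bp apart (medians). Both outer edges lay within 100 bp in 32 of these (31.4%). The edge that differed more did so by over 500 bp in 39 of them (38.2%), against 66 of the 187 regions with 1 peak in each list (35.3%). The split regions were also wider, with a median of 3168 bp against 2131 bp. Their summed replicate widths had a median ratio of 1.19.

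Broad regions made up a different share of the peaks on different chromosomes. On X 62 of 451 combined peaks were broad (13.7%, exact interval 10.7 to 17.3), against 304 of 3251 on the autosomes (9.35%, interval 8.37 to 10.4). Among the autosomes the share ran from 7.68% on chromosome I (40 of 521) to 11.0% on chromosome II (65 of 589), and the interval of chromosome II (8.62 to 13.8) overlapped that of X. The shares on X and on the autosomes were 11.9% and 9.81% in replicate 1, and 12.1% and 8.10% in replicate 2, with intervals for X of 7.08 to 18.4 and 8.05 to 17.2. Chromosome III had the lowest share in replicate 1 (4.71%), where 16 of 340 peaks were broad, and chromosome IV in replicate 2 (6.65%). In the combined list the narrower peaks were also wider on X, with a median of 612 bp against 483 bp on the autosomes. The broad regions of X were not wider, with medians of 2020 and 2281.5 bp. They held 37.0% of the covered length of X, against 33.0% on the autosomes and 37.5% on chromosome II.

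**Figure D3:**
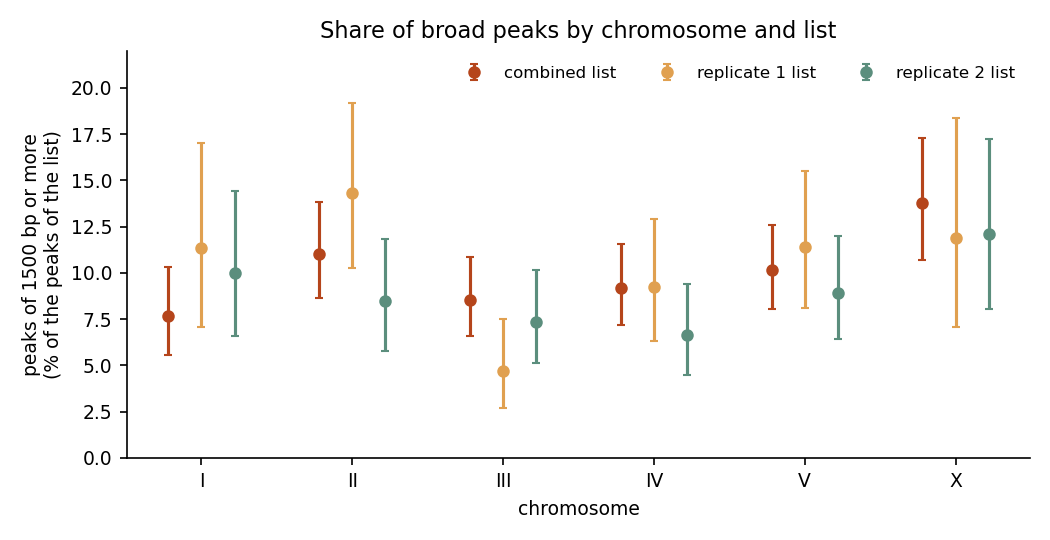
Peaks of 1500 bp or more as a percentage of all peaks on each chromosome, in the combined list and both replicate lists. Points are shares and lines exact 95% intervals; X had 13.7% in the combined list, and its intervals overlapped those of several autosomes.

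Counted per length, the broad regions of the combined list were about as dense on X as on the autosomes, whereas narrower peaks were sparser there. X had 3.52 broad regions per Mb against 3.69 on the autosomes, a ratio of 0.954, and 22.1 narrower peaks per Mb against 35.7, a ratio of 0.618. The replicate lists had ratios of 0.576 and 0.780 for broad peaks, and 0.464 and 0.499 for narrower ones, so among the 3 lists a near-equal density of broad peaks was seen in the combined list alone. Chromosome I had the lowest density of broad regions, 2.65 per Mb, and chromosome III the highest, 4.36 per Mb. Both replicates held 37 of the 62 broad regions of X (59.7%, interval 46.4 to 71.9) against 252 of 304 on the autosomes (82.9%, interval 78.2 to 87.0). Narrower peaks had the same order, with 79 of 389 on X (20.3%) and 926 of 2947 on the autosomes (31.4%). The broad regions of X were weaker, with a median q-value of 2.09e-14 against 2.29e-27, and the part of strength in these differences was not tested.

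Fewer of the broad regions of X were split. Of its 62 broad regions 7 were split in at least 1 list (11.3%, interval 4.66 to 21.9), against 99 of 304 on the autosomes (32.6%, interval 27.3 to 38.1). Each replicate list split 5 regions of X. Among regions held by both replicates the shares were 6 of 37 on X (16.2%, interval 6.19 to 32.0) and 96 of 252 on the autosomes (38.1%, interval 32.1 to 44.4), at median widths of 2424 and 2408 bp. In the strongest 926 peaks they were 7 of 35 (20.0%, interval 8.44 to 36.9) and 98 of 245 (40.0%, interval 33.8 to 46.4), so these last intervals overlapped. Chromosome III had the highest share, 25 of 60 (41.7%, interval 29.1 to 55.1), and chromosome II the lowest among autosomes, 16 of 65 (24.6%, interval 14.8 to 36.9).

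Along the chromosomes broad regions lay towards the centres somewhat more than narrower peaks did. The central 50% of the length of each chromosome held 251 of the 366 broad regions (68.6%, exact interval 63.6 to 73.3) and 2026 of the 3336 narrower peaks (60.7%, interval 59.1 to 62.4). The central 33.3% held 47.8% of broad regions (interval 42.6 to 53.1) and 44.3% of narrower peaks, a smaller difference, with the narrower share inside the interval. The broad share was the higher on each of the 6 chromosomes. The difference was widest on chromosome III, at 73.3% for broad regions and 56.5% for narrower peaks, and smallest on chromosome I, at 65.0% and 64.4%. The intervals of the classes overlapped on all chromosomes except III, where they only just stood apart (60.3 to 83.9% for broad regions and 52.5 to 60.3% for narrower peaks).

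**Figure D4:**
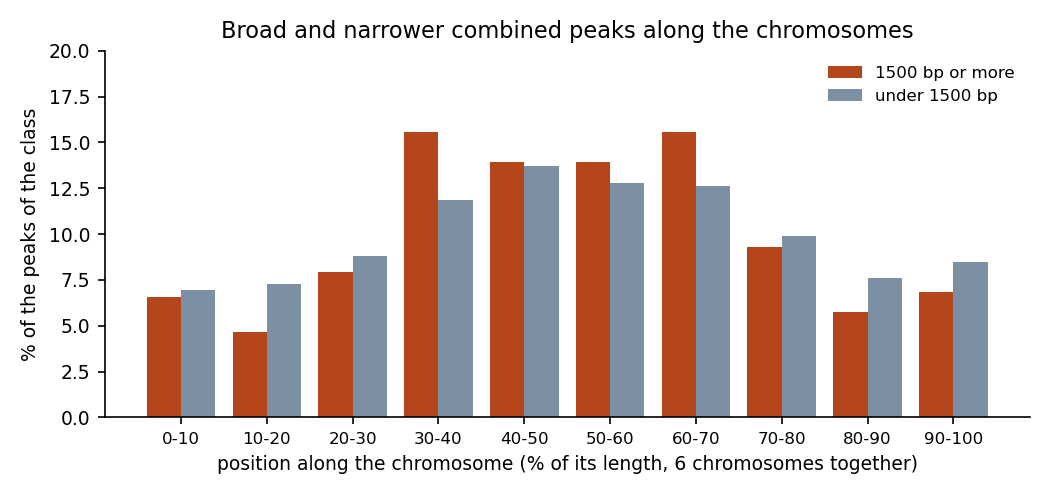
Broad and narrower combined peaks in 10 equal parts of the chromosome length, with all chromosomes laid on top of each other, as a percentage of each class. The 4 parts from 30 to 70% held 57, 51, 51 and 57 broad regions, and each outer part at most 34.

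In 97 full windows of 1 Mb the median number of broad regions was 3 and the highest 11, on X from 6000001 to 7000000. Windows with 10 broad regions lay on chromosome II from 9000001 to 10000000, on chromosome III from 5000001 to 6000000 and on chromosome IV from 5000001 to 6000000. There was no broad region in 4 windows, though each had 13 to 17 narrower peaks. Between neighbouring broad regions on a chromosome the median distance was 172978 bp, and the longest stretch without any was 1976656 bp on chromosome V, after base 16595789.

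Broad regions had other peaks close by. The nearest other combined peak was a median of 1142 bp away from edge to edge (exact interval of the median 889 to 1600 bp), against 3381.5 bp for narrower peaks (3113 to 3671 bp). A neighbour within 1000 bp was found at 172 broad regions (47.0%, interval 41.8 to 52.3) and 813 narrower peaks (24.4%, interval 22.9 to 25.9). On both sides it was found at 27 (7.38%) and 82 (2.46%). Within the strongest 926 peaks a neighbour within 1000 bp was found at 48.9% of broad regions (interval 42.9 to 54.9) and 31.4% of narrower peaks (interval 27.9 to 35.2). Measured between midpoints instead, the nearest peak in the strongest 926 peaks was 3205 bp away from broad regions and 3104 bp from narrower peaks, so the classes were close on that measure. Over the whole list the distances between midpoints were 3218 and 4080.5 bp.

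**Figure D5:**
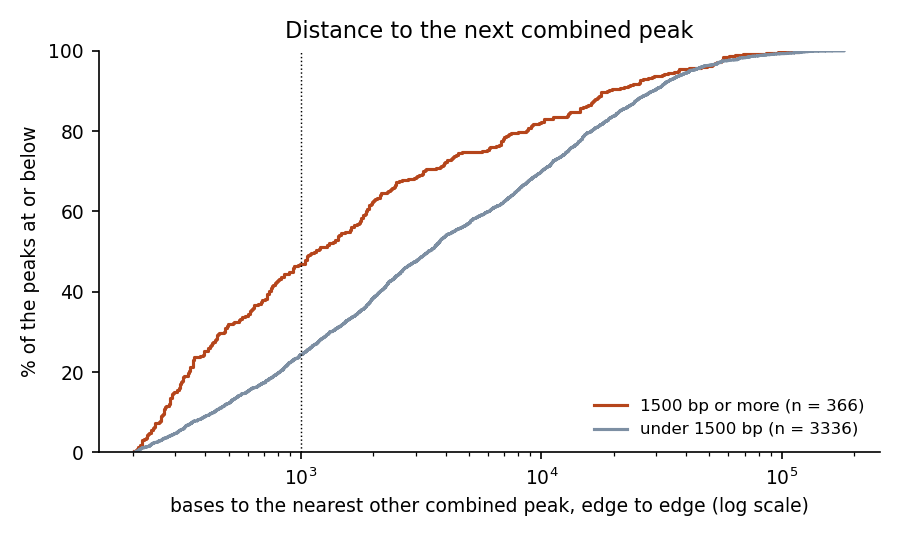
Cumulative share of combined peaks by distance in bp from edge to edge to the nearest other combined peak, on a log axis, for broad and narrower peaks. The dotted line marks 1000 bp, within which 47.0% of broad and 24.4% of narrower peaks had a neighbour.

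Many of these neighbours stood just past the smallest distance the lists contain. A neighbour at under 300 bp was found at 55 broad regions (15.0%) and 157 narrower peaks (4.71%). The closest were on chromosome IV from 3232621 to 3234837, with a peak 202 bp away, and on chromosome II from 14406196 to 14408292, with a peak 206 bp away. The third, on chromosome I from 12040792 to 12044723, had peaks at 211 and 207 bp on its 2 sides. At the second of these, replicate 2 had a peak of 2242 bp that started outside the region, at 14405950, and joined it to its neighbour. The neighbours within 1000 bp of a broad region had a median width of 1002 bp, and 55 of the 172 were broad themselves. Those of narrower peaks had a median width of 682 bp, and 131 of the 813 were broad. Over all combined peaks 9.89% were broad. Where 2 broad regions are each the nearest peak of the other, both are counted.

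Pairs of broad regions also occurred side by side. Of 360 neighbouring pairs of broad regions, 29 were less than 1000 bp apart. The closest pair was on chromosome IV, where regions of 2180 and 1874 bp were 217 bp apart at 9675981. In another pair on that chromosome, regions of 4931 and 3523 bp were 229 bp apart at 5663842. At the other end, 65 broad regions (17.8%) and 1001 narrower peaks (30.0%) had no peak within 10000 bp. The most isolated were the last peak of chromosome I, 117855 bp from the nearest peak, the region of X at 8932292 with its short core, 96065 bp away, and a region on chromosome I from 108133 to 110926 (2794 bp), 85656 bp away.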

How the data were processed

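Peaks were called by the authors with PeakSeq on WormBase WS180, per the source column and the file headers. The authors deposited a q-value for every peak, named so in its attributes. The caller's version and thresholds, the aligner, the matching input and how the combined list arose were not given in the sources used here. Starts and ends are 1-based and inclusive.

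All peaks were read without a filter. Replicate peaks were assigned to a combined peak by an overlap of at least 1 bp, and gaps were counted in bases between edges. Chromosome length was the highest peak end in any list. Shares have exact Clopper-Pearson 95% intervals, and medians exact binomial intervals from order statistics. No p-value was computed. Counts of replicate peaks per combined peak equalled those of bedtools 2.31.1 for all 3702 peaks, and the functions were tested on simulated data. Python 3.11.15, numpy 2.4.6, scipy 1.17.1, pandas 2.3.3 and matplotlib 3.10.9 were used.

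The broad regions, the limit of 1500 bp and the measures were chosen with earlier results of these data known. Regions named by position are the 10 widest, the 5 with most replicate peaks, the 3 strongest found in neither replicate, the 3 most isolated, the 3 with the closest neighbour, the 3 with the largest width ratio and those next to the width limit. Other regions given by position were chosen after their values were seen. Alternatives were other width limits, a stricter overlap, other distances, each list alone, outermost edges and the strongest 926 peaks. No sequence is shown and no gene assigned, because no genome in WS180 was used here.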

Additional observations from a re-analysis of the deposited data

How the results depend on the processing

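The restriction to regions found in both replicates, and that to the strongest 926 peaks for all but edges and widths, were added after seeing the data. Of 53 alternative values, 31 stayed within the interval of the reported value and 22 did not. Some alternatives changed what was counted, such as other neighbour distances, the central 33.3% or splitting in 1 list. The tally is therefore no measure of stability. The share of covered length has no interval of its own, so for it a range as wide as the interval of the share of peaks was set around 33.6%, and the 5 values outside that range are only descriptive. With limits of 1000, 2000 and 3000 bp, broad peaks held 48.6, 25.4 and 15.0% of the covered length, 63.1, 85.5 and 96.0% were found in both replicates, and 15.8, 39.0 and 58.6% were split. At 3000 bp the median width ratio was 1.15, against 1.15 for the remaining peaks, the lower of the 2 before rounding. In the replicate lists alone, broad peaks held 30.5 to 30.7% of the length and 11.0 to 14.3% lay on X (16.9% in the combined list). The share on X was 12.8% among regions found in both replicates and 12.5% in the strongest 926 peaks. Using 1 replicate at a time, 20.2 to 20.5% were split. In the strongest 926 peaks 96.1% were found in both and 37.5% split. The central 33.3% of chromosome length held 47.8% of broad regions and 44.3% of narrower peaks. A neighbour lay within 500 bp at 32.0% and within 2000 bp at 62.6%. Apart from the width ratio at 3000 bp, broad peaks stood above the remaining peaks in each of these alternatives in which both were computed. Other measures given above did not all follow. By midpoints in the strongest 926 peaks, broad regions were not nearer to another peak (3205 against 3104 bp). Relative to width, their ends differed less (5.18% against 6.19%). No paired analysis was possible because the input libraries, which share replicate numbers with the ChIP libraries, have no list analysed here. Depth is unknown, so a region not called in a replicate may be below detection.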

Other observations

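Some peaks were joined in a replicate and separate in the combined list. This held for 8 of the 1550 peaks of replicate 1 and 16 of the 2142 of replicate 2, which overlapped 2 or more combined peaks. The widest such peak lay on chromosome II from 9616834 to 9622315 in replicate 2 (5482 bp). On chromosome IV a peak of replicate 2 from 4467920 to 4471946 (4027 bp) overlapped 2 broad combined regions with a summed width of 6752 bp. All peaks of 1500 bp or more in the replicate lists overlapped a combined peak, but 6 in replicate 1 and 5 in replicate 2 met only combined peaks under 1500 bp. Of the broad peaks of replicate 2, 44 of 182 were split in replicate 1, and of those of replicate 1, 18 of 155 were split in replicate 2.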
